A study of Mus musculus with 8 samples.

Results

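Prox1, Nr2f2, Sp8, Htr3a, Cnr1, Reln and Adarb2 mark cortical interneurons of the caudal ganglionic eminence, and were examined here in interneurons of another lineage. The members were all rows of the count table that carry one of these gene names, which gave 8 transcript rows for 7 genes among 27207 rows for 23335 gene names. They were followed in the 126 cells with counts, of which 63 were chandelier cells (ChC) and 63 were parvalbumin cells (Pv).

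Cortical GABAergic interneurons arise mainly from the medial and the caudal ganglionic eminence of the embryonic brain. Cells of the medial eminence depend on the transcription factors Nkx2-1, Lhx6 and Sox6 and become parvalbumin or somatostatin cells, with chandelier cells among them. Cells of the caudal eminence use Prox1, Nr2f2 (COUP-TFII) and Sp8, carry the serotonin receptor subunit Htr3a, and become Vip, Cck or neurogliaform cells, the last of which often secrete reelin.

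The study counted messenger RNA molecules in single hand-picked fluorescent neurons of mouse frontal cortex. A varietal tag (unique molecular identifier, UMI) marked each molecule before amplification, so that copies of a molecule within a row of the table are counted once. Cells were processed in 8 library batches of 16 cells, and 2 cells, 1 of each type, held no count. The ChC came from female Nkx2.1-CreER; Ai14 mice induced with tamoxifen at embryonic day 17.5, with batches 1 and 2 from animal 1 at postnatal day 31 and batches 3 and 4 from animal 2 at postnatal day 32. The Pv cells came from female Pv-ires-Cre; Ai14 mice, with batches 5 and 6 from animal 3 at postnatal day 29 and batches 7 and 8 from animal 4 at postnatal day 35. Ai14 is a Cre-dependent red fluorescent reporter, so a cell was picked for past activity of the Nkx2-1 promoter at induction or of the Pvalb promoter at any age, and late tamoxifen enriches ChC without being restricted to them. Cell type, mouse line and flow cell coincided and cannot be told apart. Batches 1, 2, 5 and 6 were labelled lane 1, and batches 3, 4, 7 and 8 lane 2. Within a cell type, lane and animal thus coincided and cannot be told apart either.

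The ChC batches held 527743, 657957, 2898413 and 1307666 UMI in the order 1 to 4. The Pv batches held 456458, 501563, 370238 and 921212 UMI in the order 5 to 8. Rows of a gene name were summed, so a molecule assigned to several rows of a gene enters these totals more than once: all cells together held 7641250 UMI, and 6525445 with only the deepest row of each name. The counts of the members are not touched by this, since only Nr2f2 has 2 rows and both are at 0, but their CPM and floors rest on the summed totals. The median cell had 39200 UMI among the ChC and 27116 among the Pv cells. Levels are given as UMI of a gene per 1000000 UMI of the batch or cell (CPM), 95% intervals are exact (Poisson for levels, conditional binomial for ratios of batches), and the floor of 3 counts is the level that a count of 0 still allows. Intervals and floors cover counting error only. In sums over a batch, fewer cells of a type and less RNA per cell cannot be told apart.

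The spread of counts was measured over the cells of a batch and over the batches of an animal. For every gene with at least 100 UMI in a batch, the spread of its counts over cells was compared with the spread that cell depth alone would give, as chi-square per degree of freedom, where 1 means that molecules were spread in proportion to depth. The median gene had values of 1.21, 1.22, 1.09 and 1.18 in ChC batches 1 to 4, and of 1.19, 1.26, 1.58 and 1.21 in Pv batches 5 to 8. Between the batch pair of an animal, the same measure had a median of 50.9 in animal 1, 41.2 in animal 2, 54.4 in animal 3 and 20.0 in animal 4. The upper decile of genes within a batch began at 2.25 to 3.43. This measure grows with the counts per unit, so values over cells and over batches are not on 1 scale. As a squared coefficient of variation beyond counting error, which does not grow with counts, the median over genes with at least 100 UMI in both batches of an animal (699, 2476, 570 and 610 genes in animals 1 to 4) was 0.00398 to 0.0471 over the cells of a batch and 0.0733 to 0.125 between the batches. The value between batches was larger than that within either batch for 65.5%, 75.5%, 65.8% and 62.95% of these genes, and so not for all. Asking for 100 UMI in both batches leaves out genes far higher in 1 of them, such as Adarb2 and Reln in animal 2. Over genes with at least 100 UMI in the pair (2721, 6673, 2379 and 3092), the medians were 0.00424 to 0.0479 within and 0.199 to 0.461 between batches. No 2 cells had identical counts. Levels are given below by batch, and cells within a batch were not counted as repeats.

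The labelled lineage was checked first. Nkx2-1, the master regulator of the medial eminence, had 98.5, 125, 110 and 135 CPM in ChC batches 1 to 4 and 140, 51.8, 119 and 41.2 CPM in Pv batches 5 to 8. Lhx6, which acts downstream of it, was present in all 8 batches at 43.8 to 796 CPM and Sox6 at 81.8 to 1279 CPM. These lineage factors were therefore read in every batch in which the caudal markers were looked for. Pvalb, the calcium-binding protein that names the Pv cells, was at 125, 166, 91.8 and 74.2 CPM in ChC batches 1 to 4 and at 1413, 656, 573 and 1053 CPM in Pv batches 5 to 8, without overlap. Sst, the somatostatin gene of the other main class of the medial eminence, had 1 UMI in all cells.

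Of the 7 members, 5 had a UMI in at least 1 cell and 2 had none. In all, 2929 UMI were assigned to the members, and 2440 of them (83.3%) lay in ChC batch 4. The account below runs from the transcription factors to the receptors, the secreted protein and the RNA-binding protein.

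The transcription factors were at or near 0. Nr2f2, a nuclear receptor of caudal eminence cells (mm9 chromosome 7, 77496836 to 77511632, minus strand), is listed with 2 transcript rows, and both were at 0 in all 126 cells. Sp8, a zinc finger factor (chromosome 12, 120084802 to 120091051, plus strand), was at 0 in all 126 cells as well. Since cells of a batch were not counted as repeats, no limit on the share of cells with a UMI was drawn from this. By the floor of 3 counts, 0 UMI of a gene among 7641250 allows a level of up to 0.393 CPM over all cells. A count of 0 is common in this table, where 6804 of the 23335 gene names (29.2%) had no UMI.

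Prox1, a homeobox factor needed for the maturation of caudal eminence interneurons (chromosome 1, 191945658 to 191994559, minus strand), had 2 UMI. They lay in 1 cell of ChC batch 1 and 1 cell of ChC batch 3, which gives 1.89 and 0.345 CPM in these batches, both below the floors of 5.68 and 1.04 CPM. The Pv batches had 0 UMI of Prox1, which allows up to 1.33 CPM over the Pv cells together, against 0.371 CPM over the ChC. No difference between the cell types was detectable at this depth. The reading of Nr2f2 is also limited by its locus, since the noncoding gene B130024G19Rik overlaps it on the other strand, with 9 UMI, and the sources used here do not say whether tags were counted by strand. Among the members, Nr2f2 alone overlapped another gene of the table.

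Relatives of these factors were detected, but unevenly over the batches. The list of COUP-TF, Sp and Prox relatives (Nr2f1, Nr2f6, Sp9, Sp4, Sp1, Prox2) had counts for 6 of 6 genes, 6 were tested between ChC and Pv, and 0 were called in either direction. Prox2 had the highest mean level of the list, with 0, 0, 146 and 594 CPM in ChC batches 1 to 4 and 0, 0, 2.70 and 36.9 CPM in Pv batches 5 to 8. Prox2 was thus high in the batches of ChC animal 2 and at 0 in those of ChC animal 1. In both cell types its UMI lay in lane 2 alone, and lane and animal cannot be told apart. Nr2f6 ranged from 2.17 CPM in Pv batch 8 to 165 CPM in Pv batch 6, and Nr2f1, a COUP-TF shared by both eminences, from 0 in batches 1, 3 and 6 to 208 CPM in Pv batch 7. The median log2 fold change (ChC over Pv) of the list was 2.21, against 0.04 over the 9829 genes tested, with 4 of 6 positive and the COUP-TF genes Nr2f1 (-2.11, SE 1.46) and Nr2f6 (-1.08, SE 1.47) negative.

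Of the receptors, Htr3a was near 0 as well. Htr3a encodes the subunit that every serotonin-gated ion channel needs (chromosome 9, 48707318 to 48719204, minus strand), and had 3 UMI in 3 of 126 cells (2.38%). ChC batch 2 held 1 of them (1.52 CPM) and Pv batch 8 held 2 (2.17 CPM), both below the floors of 4.56 and 3.26 CPM. The other 6 batches had none. Its partner subunit Htr3b had 2 UMI in 2 cells.

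Cnr1, the cannabinoid receptor of Cck basket cells (chromosome 4, 34011607 to 34035806, plus strand), was present in 1 batch of each cell type and at 0 in the rest. ChC batch 3 had 66 UMI, or 22.8 CPM (interval 17.6 to 29.0), while ChC batches 1, 2 and 4 had 0, with floors of 5.68, 4.56 and 2.29 CPM. Pv batch 6 had 54 UMI, or 108 CPM (interval 80.9 to 140), while Pv batches 5, 7 and 8 had 0, with floors of 6.57, 8.10 and 3.26 CPM. Batch 6 was above batch 3 beyond counting error, and both were above the floors of all the others. The groups overlapped, since 3 batches of each were at 0 and batch 3 lay within the range of the Pv batches.

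Each batch with Cnr1 had a partner from the same animal without it. In animal 2, the level in batch 3 was 9.93-fold the floor of batch 4. In animal 3, the level in batch 6 was 16.4-fold the floor of batch 5. With the counting error of both batches, the lower 95% limits of the ratios between the batches were 7.85 and 12.9. Within the batches that held it, Cnr1 was spread over 11 of 16 cells in batch 3 and 13 of 15 cells in batch 6. A spread in proportion to depth would give 11.8 and 12.7 cells. Thinned to 10000 UMI per cell, the expected shares of cells with Cnr1 were 19.2% in batch 3 (14 cells deep enough) and 63.4% in batch 6 (13 cells). Of 8926 genes with at least 100 UMI, 84 (0.941%) had UMI in at most 2 of the 8 batches, and 1 of the 3 members of that depth, Cnr1, did. Cnr1 had 120 UMI in all and reached that depth through the 2 batches that held it. The genes were not matched to Cnr1 for depth, so it is not compared with that share.

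Genes that act with the receptor were found more widely. All 8 genes of the list of endocannabinoid enzymes and partners had counts, 7 were tested and 0 were called in either direction. Mgll, which degrades the ligand 2-arachidonoylglycerol, led the list with 191, 1027, 489 and 397 CPM in ChC batches 1 to 4 and 26.3, 0, 610 and 583 CPM in Pv batches 5 to 8. In batch 6, where Cnr1 was highest, Mgll was at 0, and in batch 3 both were present. Abhd6, another enzyme of the same ligand, ranged from 1.89 CPM in batch 1 to 289 CPM in batch 7, and Napepld, which makes the ligand anandamide, from 3.82 CPM in batch 4 to 245 CPM in batch 6. The median log2 fold change of the list was 0.22, with 4 of 7 positive, against 0.04 over all genes tested.

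Reln encodes reelin, the large secreted glycoprotein of Cajal-Retzius cells and of many neurogliaform and somatostatin interneurons (chromosome 5, 21390272 to 21850523, minus strand). It had 734 UMI in 86 of 126 cells, and was found in all 8 batches. ChC batches 1 to 4 had 28.4, 22.8, 12.1 and 417 CPM, and Pv batches 5 to 8 had 21.9, 138, 43.2 and 31.5 CPM. Batch 4 was the highest (interval 383 to 453 CPM) and batch 6 came next (107 to 174 CPM). Below them the intervals of batches 7, 8, 1, 2 and 5 overlapped one another, and that of batch 3, the lowest (8.41 to 16.8 CPM), reached those of batches 1, 2 and 5. The groups overlapped, with mean levels over batches of 120 ± 198 CPM in ChC and 58.5 ± 53.4 CPM in Pv. Each SD is over 4 batches from 2 animals, so it describes the batches and is no spread over independent samples.

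The level of Reln differed within animals. In animal 2 it was 34.5-fold higher in batch 4 than in batch 3 (interval 24.5 to 50.1), and in animal 3 it was 6.28-fold higher in batch 6 than in batch 5 (3.22 to 13.7). In animals 1 and 4 the batches differed by 1.25-fold (0.568 to 2.74) and 1.37-fold (0.696 to 2.61), within counting error. Among the 14 cells of batch 4 with at least 10000 UMI, Reln ran from 230 to 696 CPM with a median of 403 CPM, and the remaining cell, of 3870 UMI, had 0. Its counts over all cells of the batch gave 1.71 per degree of freedom, between the median gene of that batch (1.18) and its upper decile (2.67). The shares of cells with a UMI were 50%, 68.8%, 62.5% and 93.3% in batches 1 to 4 and 43.8%, 100%, 50% and 81.2% in batches 5 to 8. Over all cells of a type, 43 of 63 ChC and 43 of 63 Pv cells had a UMI (68.3% each). Thinned to 10000 UMI per cell, which left out 14 ChC and 4 Pv cells, the expected shares were 41.2% of ChC and 40.2% of Pv cells. By batch they were 25.3%, 25.97%, 7.55% and 98.3% in batches 1 to 4 and 25.3%, 80.7%, 34.5% and 26.7% in batches 5 to 8, so the near equality rested on batch 4: without it the ChC share was 18.4%, and without batch 6 the Pv share was 28.8%.

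The receptors and adaptors through which reelin signals had counts for 8 of 8 genes, of which 7 were tested and 0 were called in either direction. Dab1, the adaptor that binds the reelin receptors and is phosphorylated by Fyn and Src, led the list with 1298, 149, 791 and 1158 CPM in ChC batches 1 to 4 and 56.96, 319, 230 and 4.34 CPM in Pv batches 5 to 8. The groups overlapped through ChC batch 2, and the log2 fold change was 2.57 (SE 0.74), with an adjusted p of 0.598 by edgeR (quasi-likelihood, Benjamini-Hochberg). Dab2ip followed, from 13.5 CPM in batch 7 to 222 CPM in batch 1. The receptor genes Vldlr and Lrp8 were at means of 21.7 and 25.9 CPM over the 8 batches. The median log2 fold change of the list was 1.33, and 7 of the 7 genes tested had positive values, against 0.04 and 5061 of 9829 over all genes tested.

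Cajal-Retzius cells, which secrete reelin in the developing cortex, had few of their other markers here. Of the 5 genes of their list, Lhx1 was at 0, Trp73 had 10 UMI, Calb2 had 2 and none was deep enough to be tested. Their summed level was 24.6, 4.56, 4.14 and 19.9 CPM in ChC batches 1 to 4 and 0, 3.99, 8.10 and 2.17 CPM in Pv batches 5 to 8, with Ebf2 the most abundant. In batch 4, the batch of highest Reln, the sum was the next highest after batch 1, and in batch 6, the batch of second highest Reln, it was 3.99 CPM.

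Adarb2 encodes a brain protein of the RNA-editing adenosine deaminase family that binds RNA without known editing activity, and is used as a broad marker of caudal eminence interneurons (chromosome 13, 8202155 to 8759554, plus strand). It had 2070 UMI in 74 of 126 cells and was found in all 8 batches. ChC batches 1 to 4 had 17.1, 19.8, 24.2 and 1449 CPM, and Pv batches 5 to 8 had 17.5, 35.9, 127 and 10.9 CPM. Batch 4 stood far above all others (interval 1385 to 1516 CPM) and batch 7 came next (93.3 to 169 CPM). The intervals of batches 6, 3, 2, 5 and 1 overlapped, from 56.7 CPM at the upper end of batch 6 to 7.57 CPM at the lower end of batch 5, and batch 8, the lowest (5.21 to 20.0 CPM), reached all of these except batch 6. The groups overlapped: 3 of the 4 ChC batches lay within the range of the Pv batches.

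Adarb2 also separated batches of the same animal. In animal 2 it was 60.003-fold higher in batch 4 than in batch 3 (interval 47.3 to 77.3), and in animal 4 it was 11.7-fold higher in batch 7 than in batch 8 (5.83 to 25.96). In animals 1 and 3 the ratios were 1.16 (0.458 to 3.07) and 2.05 (0.847 to 5.44), within counting error. In batch 4, Adarb2 was found in 15 of 15 cells, at 792 to 1740 CPM with a median of 1440 CPM, and its counts gave 1.62 per degree of freedom, between the median gene of that batch (1.18) and its upper decile (2.67). In batch 3, from the same animal, the median cell had 16.9 CPM, and the highest level among cells of at least 10000 UMI was 131 CPM. A large gap between these 2 batches was not restricted to the members. Of 6673 genes with at least 100 UMI in the pair, 357 (5.35%) were at least 10-fold higher in batch 4. Adarb2 and Reln were too, but they reached that depth through batch 4, with 70 and 35 UMI in batch 3. The members are therefore not compared with that share or ranked among these genes.

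**Figure D1:**
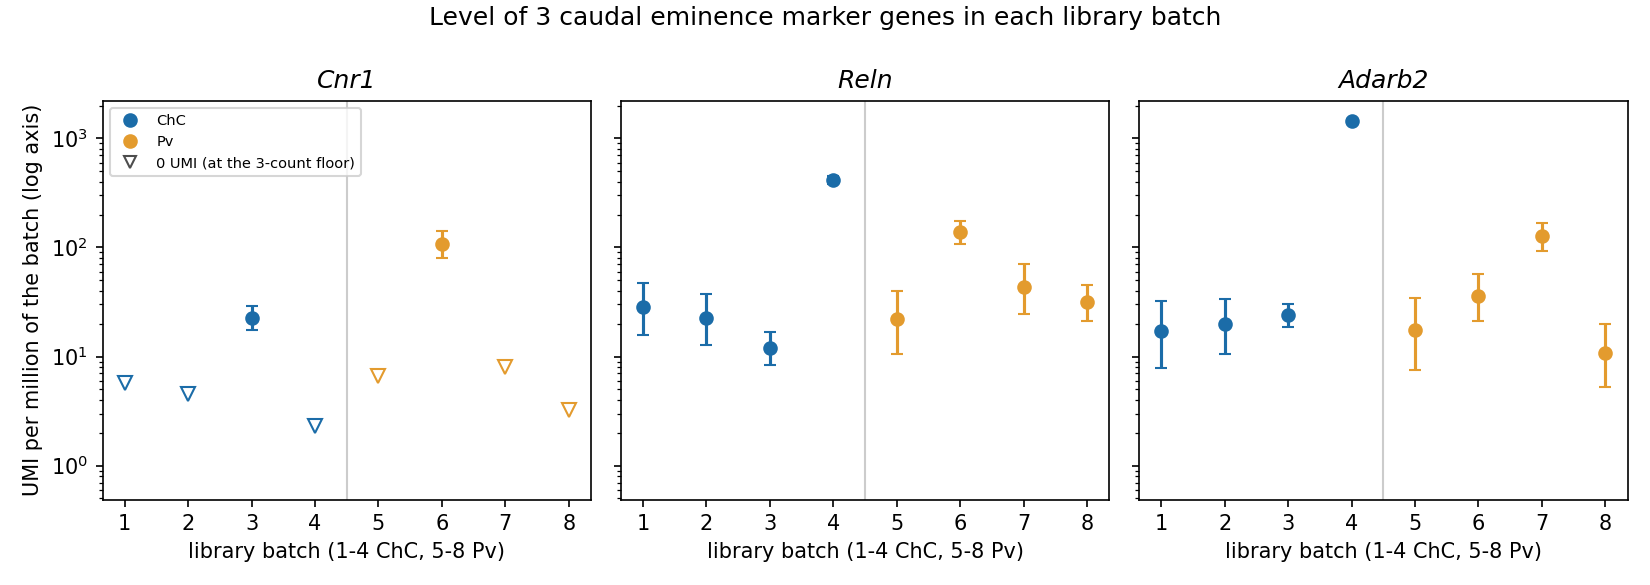
Level of Cnr1, Reln and Adarb2 in CPM of the batch (log axis) in ChC batches 1 to 4 and Pv batches 5 to 8, with exact 95% Poisson intervals for counting error; open triangles mark batches with 0 UMI and are drawn at the floor of 3 counts. Cnr1 appears in batches 3 and 6 alone, while Reln (417 CPM) and Adarb2 (1449 CPM) are highest in batch 4.

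Other RNA-editing genes did not share this level. The ADAR family list had counts for 3 of 4 genes, with Adad2 at 0, and of the 2 tested 0 were called in either direction. Adarb1, an active editing enzyme, had 30.3, 73.0, 215 and 71.9 CPM in ChC batches 1 to 4 and 50.4, 317, 165 and 106 CPM in Pv batches 5 to 8. Adar had 279, 112, 48.6 and 278 CPM in the ChC batches and 17.5, 23.9, 59.4 and 148 CPM in the Pv batches. Adarb1 was highest in batch 6 and Adar in batches 1 and 4, so that neither ranked the batches as Adarb2 did. The median log2 fold change of the 2 tested genes was 0.39, with 1 positive.

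The share of cells with a UMI of Adarb2 was 31.2%, 43.8%, 87.5% and 100% in ChC batches 1 to 4 and 25%, 73.3%, 81.2% and 31.2% in Pv batches 5 to 8. Batch 3 had the deepest cells, and its share of 87.5% fell to 23.9% when cells were thinned to 10000 UMI, beside 100% in batch 4 and 68.0% in batch 7. Over the cell types, 41 of 63 ChC (65.1%) and 33 of 63 Pv cells (52.4%) had a UMI, and 42.2% and 29.9% after thinning. The order of the thinned shares rested on batch 4, without which the ChC share was 19.03%, below that of Pv, and the Pv share was 16.97% without batch 7.

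**Figure D2:**
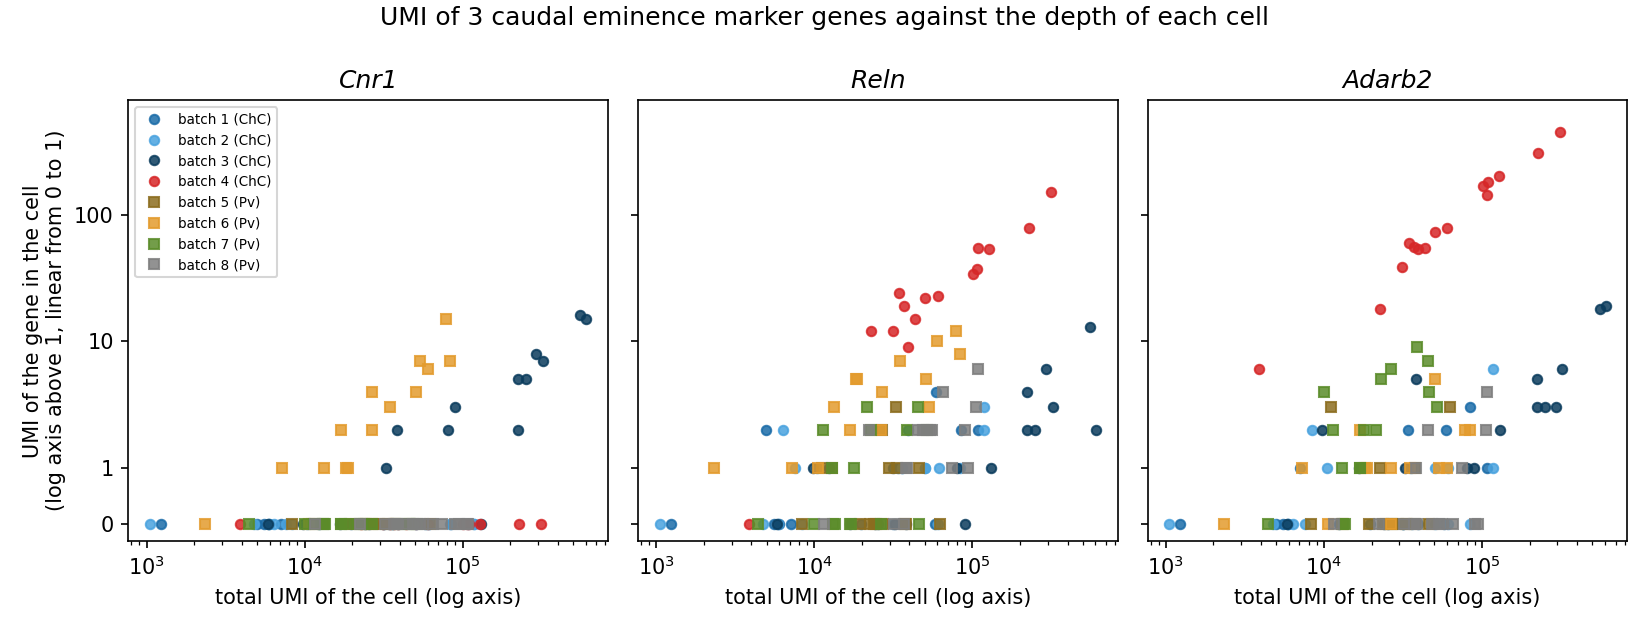
UMI of Cnr1, Reln and Adarb2 in each of the 126 cells against the total UMI of the cell (log axis; vertical axis logarithmic above 1 and linear from 0 to 1), with circles for ChC and squares for Pv cells, coloured by library batch. The 14 cells of batch 4 with at least 10000 UMI lie above cells of similar depth from other batches for Reln and Adarb2, up to 451 UMI of Adarb2 in the deepest cell of the batch; the remaining cell, of 3870 UMI, has 0 UMI of Reln.

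The comparison of cell types asks whether these markers differ between 2 classes of the medial eminence. UMI were summed per animal, and 2 ChC animals were set against 2 Pv animals. By the quasi-likelihood test of edgeR, with p adjusted after Benjamini and Hochberg over all genes, 0 of the 3 members that could be tested and 0 of the 9829 genes tested (0%) were called at an adjusted p under 0.05, while 616 genes had an unadjusted p under 0.05. DESeq2 called 150 of the same 9829 genes, and 166 of the 16531 genes with any UMI, none of them a member. The 4 members that were not tested were Nr2f2 and Sp8, with no counts, and Prox1 and Htr3a, which had too few.

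Adarb2 had 18.6 and 467 CPM in ChC animals 1 and 2, and 27.1 and 44.1 CPM in Pv animals 3 and 4. Its log2 fold change (ChC over Pv) was 2.81 (SE 1.36), with an adjusted p of 0.835 by the edgeR test. Only 1 of the 2 ChC animals was above the Pv animals, and the direction rested on 1 library. Without ChC batch 4 the log2 fold change was -0.59 (SE 1.38), and without ChC animal 2 it was -0.81 (SE 2.11).

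Reln had 25.3 and 138 CPM in the ChC animals and 82.5 and 34.8 CPM in the Pv animals. The log2 fold change was 0.46 (SE 1.22), with an adjusted p of 0.996 by the edgeR test, and the animals of the cell types overlapped. Here too the sign turned without batch 4 (-1.56, SE 1.39) and without ChC animal 2 (-1.17, SE 1.93), and also without Pv animal 4 (-0.11, SE 1.48) or Pv batch 5 (-0.14, SE 1.40).

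Cnr1 had 0 and 15.7 CPM in the ChC animals and 56.4 and 0 CPM in the Pv animals. The log2 fold change was -1.88 (SE 2.37), with an adjusted p of 0.991 by the edgeR test. With Pv animal 3 left out it was 7.19 (SE 5.09), a fitted value against a group at 0 and so no measure of size. For these 3 genes, the largest ratio between the batches of 1 animal was greater than the fitted fold change between the cell types. With 2 animals a side, the interval of each fold change is wide, and a miss of the threshold does not show that the levels were equal.

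Single cells were then examined for several members at once. A member was counted as held by a cell at 5 UMI or more and 50 CPM or more of the cell. By this rule 0 of 126 cells held 3 or more members. Of the 126 cells, 96 held none, 12 held 1 and 18 held 2. Of the 18 cells, 14 lay in ChC batch 4, where every cell that held Reln held Adarb2, and 4 lay in Pv batch 6, where 3 held Cnr1 with Reln and 1 held Adarb2 with Reln. No cell held Prox1, Nr2f2, Sp8 or Htr3a.

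With 1 UMI enough to count, 21 cells had 3 or more members, and their places followed the batches and the depth of cells. Pv batch 6 had 11 of them among its 15 cells, ChC batch 3 had 8 among 16, and ChC batch 2 and Pv batch 8 had 1 each. Of the 21 cells, 19 had Cnr1, Reln and Adarb2 together, all in the batches where Cnr1 was found. The cell with the most members, with 4, was cell ChC-33 of batch 3, with 8 UMI of Cnr1, 6 of Reln, 3 of Adarb2 and 1 of Prox1 among 292045 UMI. At 10 UMI or more, 1 cell had 3 members, cell ChC-37 of batch 3, with 16 UMI of Cnr1, 13 of Reln and 18 of Adarb2 among 554495 UMI, or 28.9, 23.4 and 32.5 CPM.

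The medial lineage genes were also found in these cells. Of the 21 cells with 3 or more members, 21 had a UMI of Sox6 and 17 had a UMI of Lhx6, and the 4 without Lhx6 were all in batch 6. Over all 126 cells, 115 had a UMI of Sox6 and 102 of Lhx6, and in batch 6 Lhx6 was found in 9 of 15 cells. ChC-37 had 436 CPM of Lhx6 and 1068 CPM of Sox6, beside 480 and 1118 CPM over batch 3 as a whole. No cell of batch 4 was among the 21. The deepest cell of batch 4, ChC-51, had the most UMI of Adarb2, 451 (1440 CPM), and 150 of Reln (479 CPM). It had 370 CPM of Lhx6 and 57.5 CPM of Sox6, beside 330 and 81.8 CPM over the batch. The highest level of Adarb2 in batch 4 was that of ChC-56, at 1740 CPM with 696 CPM of Reln. ChC-56 had 116 CPM of Lhx6 and 0 of Sox6. Over batch 4, Sox6 was found in 12 of 15 cells and Lhx6 in 14. The cell of batch 6 with the most Cnr1, Pv-21, had 15 UMI of Cnr1 (191 CPM), 12 of Reln (153 CPM) and 2 of Adarb2, with 127 CPM of Lhx6 and 153 CPM of Sox6, beside 83.7 and 275 CPM over the batch. In batch 6 the counts of Cnr1, Reln and Adarb2 gave 0.690, 0.970 and 1.06 per degree of freedom, from 54, 69 and 18 UMI. These counts lie below the 100 UMI asked for above and do not tell how even the genes were. Whether UMI of several members in 1 cell differ from levels common to batch 6 was not tested. In batch 3 the same genes gave 0.636, 1.48 and 2.84, the last from 70 UMI. That value was raised by 2 shallow cells, ChC-35 with 5 UMI among 38188 and ChC-40 with 2 among 9774. Values above 2 were also found in batches 1 (2.30 for Reln) and 2 (2.19 for Reln and 2.35 for Adarb2), from 13 to 15 UMI each, and counts this low do not tell how even these genes were. Whether cells of a batch exchanged molecules was not tested.

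The wider list of markers of caudal eminence interneurons was uneven too. It had 20 genes, all measured, of which 14 had counts and 6 (Vip, Ndnf, Crh, Tac2, Sncg and Krt73) were at 0 in every cell; 8 were tested, and 0 were called in either direction. The median log2 fold change of the 8 was 0.78, with 5 positive, against 0.04 over all genes tested. Their summed level was 510, 275, 1426 and 1858 CPM in ChC batches 1 to 4, and 405, 343, 926 and 668 CPM in Pv batches 5 to 8. Batch 4 had the highest sum and batch 3 the next, where Kit made up most of it.

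Among these genes Kit had the highest mean level, with 231, 66.9, 1090 and 205 CPM in ChC batches 1 to 4 and 0, 3.99, 16.2 and 4.34 CPM in Pv batches 5 to 8, without overlap between the groups. Its log2 fold change was 6.63 (SE 1.22), with an adjusted p of 0.598 by the edgeR test. Cck, the peptide of Cnr1-bearing basket cells, was in all 8 batches, at 20.8, 30.4, 255 and 297 CPM in the ChC batches and 65.7, 307, 230 and 124 CPM in the Pv batches. It was highest in batch 6, where Cnr1 was highest, and nearly as high in batch 4, where Cnr1 was at 0. Npy, a peptide of neurogliaform cells, had 356 CPM in batch 4 and 482 CPM in Pv batch 8, with UMI in 15 of 15 and 16 of 16 cells, and at most 66.9 CPM in the other 6 batches. Id2, a further marker of neurogliaform cells, had 548 CPM in batch 4 and at most 98.6 CPM in the others. Lamp5 of the same list had 310 CPM in batch 4, 270 CPM in Pv batch 7 and 152 CPM in ChC batch 1, and 0 in the others. Cplx3 was highest in batch 4 as well, at 77.2 CPM. In contrast, Cxcl14 had 75.6 CPM in Pv batch 7 and 0 in batch 4, and Ndnf and Vip were at 0 in batch 4 as in every batch. The class of the cells of batch 4 was not tested.

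The lists of the cells' own identity varied less. The medial eminence list had counts for 10 of 10 genes, with Erbb4 the most abundant, and summed to 5410, 10048, 6159 and 4682 CPM in ChC batches 1 to 4 and to 4907, 6111, 4403 and 5542 CPM in Pv batches 5 to 8. The list of GABA genes, with counts for 9 of 9 and Slc32a1 the most abundant, summed to 3797, 4553, 5243 and 5235 CPM in the ChC batches and to 5381, 5423, 2636 and 4584 CPM in the Pv batches. Satb1 and Gad1 had the next highest mean levels, at 629 and 1153 CPM over the 8 batches. Batch 4 lay within the range of the other batches for the sums of both lists, but Erbb4 made up 3599 CPM of its medial sum. In the same list batch 4 had the lowest Sox6 of the 8 batches, at 81.8 CPM, with 275 CPM in batch 6 as the next lowest, and its Satb1 was 9.18 CPM, the next lowest after 0 in batch 1. Of the 9 and 8 genes tested in these lists, 0 were called, with median log2 fold changes of 0.58 and 0.08 and 6 and 4 positive.

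Markers of other cortical cells moved with some of the same batches, and their part in the levels of the members was not tested. The pyramidal list (6 of 9 genes with counts, with Neurod6, Tbr1 and Emx1 at 0, with Camk2a and Cux2 the most abundant) summed to 131, 810, 153 and 999 CPM in ChC batches 1 to 4 and 524, 927, 1793 and 464 CPM in Pv batches 5 to 8. The astrocyte list (6 of 7, with Gfap at 0 and with Slc1a2 and Slc1a3 the most abundant) summed to 49.3, 427, 308 and 928 CPM in the ChC batches and 37.2, 13.96, 1372 and 211 CPM in the Pv batches. Pv batch 7, which had the next highest Adarb2, thus had the highest sums of both lists, and batch 4 came next.

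In the oligodendrocyte lineage list Mag, Mobp, Olig2 and Cspg4 were at 0, and Mbp, a myelin gene, had 0, 4.56, 127 and 164 CPM in ChC batches 1 to 4 and 0, 0, 219 and 98.8 CPM in Pv batches 5 to 8. The microglia list (5 of 7, with C1qa and Tmem119 at 0, with P2ry12 and Csf1r the most abundant) summed to 0, 1.52, 4.14 and 91.8 CPM in the ChC batches and 0, 5.98, 13.5 and 1.09 CPM in the Pv batches. It was highest in batch 4, as were Adarb2 and Reln. The endothelial and mural list (6 of 8, with Cldn5 and Vtn at 0, with Tek and Rgs5 the most abundant) summed to 34.1, 48.6, 12.8 and 25.2 CPM in the ChC batches and 10.95, 35.9, 167 and 131 CPM in the Pv batches. Of the 3, 3, 1, 0 and 1 genes tested in these 5 lists, 0 were called, with median log2 fold changes of -1.02, 0.76, 0.23 and 0.06 in the 4 lists with a tested gene.

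Genes whose CPM varied most like a member's over the cells of a batch were sought among cells of at least 10000 UMI, as a description over cells that share library and depth. For Adarb2, over 108 cells in 8 batches and 5782 genes, the highest mean Spearman correlations within batches were those of Nlgn1 (0.46), Synrg (0.38) and A630010A05Rik (0.37). For Reln, over the same cells, they were those of Nkain3 (0.41), Filip1 (0.38) and Yeats2 (0.38). Single batches ran from 0.09 to 0.80 for Nlgn1 and from -0.06 to 0.80 for A630010A05Rik, and from 0.12 to 0.65 for Nkain3 and from -0.38 to 0.69 for Filip1. For Cnr1, over 27 cells in batches 3 and 6 and 8436 genes, they were those of Ccdc15 (0.86), Cox6a2 (0.71) and Sdhd (0.70). In counts this sparse the highest of so many correlations is high by selection, and none was tested.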

How the data were processed

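The authors aligned reads to mm9 with Bowtie 0.12.7, per the submitters' processing notes, collapsed reads of a gene with the same varietal tag, and deposited the resulting whole-number counts (transcript by cell) unscaled. All 128 cell columns were assigned to batches by the labels, and 2 without a count were left out. Rows of a gene name were summed, because the share of names with equal rows was below the 50% set as the limit. Of 1359 repeated names with at least 100 UMI, 632 (46.5%) had their 2 deepest rows equal in at least 90% of cells. CPM used the total over all gene names. Sums per animal were tested with edgeR 4.0.16 (TMM, filterByExpr, quasi-likelihood, Benjamini-Hochberg over all genes) in R 4.3.3. The procedure was checked on simulated data. The SE of an edgeR log2 fold change was derived from the test, as its absolute value over the square root of the F statistic. Alternatives were DESeq2 1.42.0 (on all genes with UMI and on the filtered genes), no filter, batches as samples, the deepest row per name, means of cell CPM, other detection levels, thinning to 10000 or 5000 UMI, and leaving out animals or batches. DESeq2 on the filtered genes, and leaving out batches in the fits and in thinned shares, were chosen after seeing the data. Thinned shares are hypergeometric expectations. Named genes were the 7 members, the genes of highest mean CPM in each of 13 marker lists with any called, and genes named as at 0. For likeness, 3 genes per member were named. Nkx2-1, Lhx6, Sox6, Pvalb, Sst, Htr3b, Lamp5, Cplx3, Cxcl14, Vldlr, Lrp8, Calb2 and B130024G19Rik were named beyond these rules, after their values were seen. Ndnf and Lamp5 are listed under older symbols and were matched through RefSeq synonyms. A gene of the oligodendrocyte lineage list, and the sum of that list, are not reported here. Members and lists were chosen with earlier results of these data known. Statistics used Python 3.11.15 with scipy 1.17.1.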

Additional observations from a re-analysis of the deposited data

Results flagged for a closer look

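Within each group of 4 batches, the level of each member was examined for a batch far from the other 3, by its gap to the nearest batch relative to the whole range of the group. Of 14 such groups, 9 had any UMI and 6 held a batch beyond the 95% critical value (for independent normal values, about 5% of groups would). The same rule marked 3503 of 17745 groups (19.7%) over all genes of at least 100 UMI, and 4 of 6 for the 3 members of that depth. These were the groups of Cnr1, which the rule marks by construction, and the ChC groups of Reln and Adarb2, both through batch 4. The shares are therefore not compared. The batch with the highest level held 58.4% of the summed CPM of Reln, 85.2% for Adarb2 and 82.5% for Cnr1. The upper decile over all genes of at least 100 UMI was 63.5%. Cnr1 reached that depth through batches 3 and 6 alone and is not compared with it. Adarb2 was 1449 CPM in ChC batch 4, and Reln was 417 CPM in the same batch. Cnr1 was 22.8 CPM in ChC batch 3 and 108 CPM in Pv batch 6, in each case with 0 in the other 3 batches of the cell type. Htr3a was 1.52 CPM in ChC batch 2 and 2.17 CPM in Pv batch 8, which rest on 1 and 2 UMI and lie below the floor of 3 counts. A group in which all batches but 1 are at 0 is always beyond the critical value, so the flags of Cnr1 and Htr3a add nothing to the counts themselves.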

How the results depend on the processing

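The count of genes called between ChC and Pv was 0 in the animal fit and with the deepest row per gene name, 166 with DESeq2 and no filter on low counts, 150 with DESeq2 on the filtered genes (added after seeing the data), 80 with edgeR and no filter and 5 with batches as samples. Leaving out an animal gave 17, 51, 7 and 100 calls for animals 1 to 4, with the lone animal of a type then assumed to vary like the other type, and leaving out a batch, an alternative added after seeing the data, gave 0 calls except 1 without Pv batch 7, so the range was 0 to 100; the cause was not tested. The log2 fold changes of the members were not called under any alternative that gave an adjusted p, which the means of cell CPM did not. Over the left-out animals and batches they ran from -0.81 to 4.49 for Adarb2, from -1.56 to 1.97 for Reln and from -8.14 to 7.19 for Cnr1, where the ends for Cnr1 are fits against a type at 0. The direction turned in 7 of 51 alternatives, all by leaving out an animal or a batch. Without Pv animal 4 the median over all genes was 0.58, beside -0.11 for Reln. Cnr1 had no fitted value with batches as samples or without batch 3 or 6, and the cause was not tested. Cells with 3 or more members were 21 at 1 UMI, 11 at 2 UMI and 1 at 10 UMI, against 0 at 5 UMI with 50 CPM, and 0 in the other 10 alternatives. Shares of cells with a UMI moved by more than the spread between batches in 9 of 182 alternatives, of which 56, leaving out a batch after thinning to 10000 UMI, were added after seeing the data. Among these, the share with Reln was 18.4% of ChC without batch 4 and that with Adarb2 19.03% of ChC without batch 4 and 16.97% of Pv without batch 7. For Reln, 46.03% of ChC had 2 UMI, 25.4% of ChC and 12.7% of Pv cells had 5, 41.2% and 40.2% remained when thinned to 10000 UMI, and 30.5% and 24.7% at 5000. For Adarb2, 7.94% of Pv cells had 5 UMI and 19.3% remained at 5000. Depth limits Prox1, Nr2f2, Sp8 and Htr3a, which lay at or below the floor in every batch, and 2 animals of each type limit all comparisons between types. Batch 4 holds most ChC UMI of Adarb2 and Reln, so their levels pooled over ChC describe that library, while all ChC UMI of Cnr1 lie in batch 3.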
